A study of Homo sapiens with 8 samples.

Results

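Transcripts of 7 myeloid granule proteins, ELANE, PRTN3, AZU1, CFD, MPO, CTSG and LYZ, were followed in MonoMac 6, an established human line from an acute monocytic leukaemia, with and without the cytokine APRIL. They were picked by symbol in the deposited table, where 7 of 7 were listed among 11530 genes, and 7 of 7 passed the filter on low values that kept 11257 genes. The treated group (4 libraries) was given APRIL, a TNF family ligand encoded by TNFSF13, for 24 h at 100 ng/mL in RPMI without serum, and the control group (4 libraries) had received none. Cultures of the line carried fetal bovine serum (10%) and penicillin with streptomycin (1%), and according to the series text both groups also had baseline cytokines, which it does not name. The labels do not say whether control cells stayed in serum, so an effect of APRIL and one of serum withdrawal cannot be told apart here. All libraries come from 1 cell line, and the labels do not say whether they were separate cultures, so the p-values rest on library-to-library spread that may be technical.

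Azurophil granules are the first granules that a maturing neutrophil or monocyte makes, at the promyelocyte and promonocyte stages, and they store ready-made antimicrobial enzymes. Neutrophil elastase, proteinase 3, cathepsin G and azurocidin are relatives of one serine protease family, and azurocidin has lost its proteolytic activity and acts as an antimicrobial and chemotactic protein. Myeloperoxidase is a heme enzyme that makes hypochlorous acid from hydrogen peroxide, lysozyme cuts bacterial cell walls, and factor D starts the alternative complement pathway by cutting factor B. Leukaemic myeloid cells often keep these transcripts from the stage at which their maturation stopped.

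The set holds 4 genes that lie in a row on the short arm of chromosome 19, in the order AZU1, PRTN3, ELANE and CFD. CTSG lies on chromosome 14, MPO on chromosome 17 and LYZ on chromosome 12. The start regions are shown for the 4 members with an entry in the promoter set used, 3 on chromosome 19 and CTSG on chromosome 14. Each run is the 250 bases before the transcript start, from RefSeq (GRCh38.p14), 5′ to 3′, with GAGGAA, the core recognised by the myeloid factor PU.1, in capitals on either strand. ELANE, MPO and LYZ had no entry there and are not shown.
AZU1 (chr19:827587-827836, plus strand): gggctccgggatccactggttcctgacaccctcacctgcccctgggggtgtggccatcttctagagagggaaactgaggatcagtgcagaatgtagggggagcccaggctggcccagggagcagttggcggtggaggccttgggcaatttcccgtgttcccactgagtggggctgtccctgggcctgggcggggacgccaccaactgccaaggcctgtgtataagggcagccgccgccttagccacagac
PRTN3 (chr19:840749-840998, plus strand): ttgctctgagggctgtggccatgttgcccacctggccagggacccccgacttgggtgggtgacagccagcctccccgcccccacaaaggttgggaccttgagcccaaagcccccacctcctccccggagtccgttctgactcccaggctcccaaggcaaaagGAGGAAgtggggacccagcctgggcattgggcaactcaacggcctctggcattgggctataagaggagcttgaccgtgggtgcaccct
CFD (chr19:859414-859663, plus strand): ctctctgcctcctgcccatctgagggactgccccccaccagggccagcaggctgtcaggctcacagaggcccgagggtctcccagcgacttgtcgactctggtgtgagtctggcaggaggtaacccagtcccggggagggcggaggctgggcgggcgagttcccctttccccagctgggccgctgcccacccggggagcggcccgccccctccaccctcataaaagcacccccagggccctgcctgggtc
CTSG (chr14:24576251-24576500, minus strand): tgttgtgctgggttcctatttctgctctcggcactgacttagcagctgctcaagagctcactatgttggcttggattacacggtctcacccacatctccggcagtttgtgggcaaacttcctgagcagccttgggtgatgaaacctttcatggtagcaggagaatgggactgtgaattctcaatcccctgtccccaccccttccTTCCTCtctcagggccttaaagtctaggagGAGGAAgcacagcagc

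These 4 runs were searched on both strands for GAGGAA and for 5 other motifs: the TATA box as TATAAA, the GC box as GGGCGG, the C/EBP motif as TTGCNNAA, the RUNX motif as TGTGGT and the MYB motif as AACNG. Matches of different motifs did not overlap. The PU.1 core was found once before PRTN3, 88 bases from the start, and at 2 places before CTSG, and a match stands in 23.6% of 35116 promoters of the same length. TTGCNNAA was found once before AZU1, 111 bases from the start, and once before PRTN3, 62 bases from the start, against 9.05% of promoters. GGGCGG was found at 3 places before CFD, at 1 before AZU1 and at 1 before PRTN3, against 42.6% of promoters. AACNG was found at 3 places before AZU1, 2 before PRTN3 and 1 before CTSG, against 70.6% of promoters. TATAAA and TGTGGT were not in these windows (10.7% of promoters hold TATAAA). The GC content of the windows was 64.8% for AZU1, 64.4% for PRTN3, 70.8% for CFD and 52.8% for CTSG, where the median promoter had 58.0%. A match is a run of letters and no evidence of binding.

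Every value below is the authors' log2 level after TMM scaling (trimmed mean of M values), and a difference is APRIL minus control on that log2 scale with the standard error of limma over 4 libraries per group. The table heads its columns with the group and no replicate number, so each library is named by its group and its place among the 4 columns of that group, and the 4 values of a group are given in column order. Levels are compared within a gene only, because the deposited values hold a divisor per gene that does not follow its length.

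None of the 7 granule genes passed limma's threshold (adjusted p under 0.05), and 0 of 11257 tested genes passed (0%). At an unadjusted p under 0.05 there were 4 of 7, namely the chromosome 19 genes ELANE, CFD, PRTN3 and AZU1, each higher with APRIL. Of all tested genes 11.9% were under that p in either direction, 6.25% in the higher and 5.69% in the lower direction, and 0 of 10885 genes passed with voom on recovered reads (1183 at an unadjusted p under 0.05). Of all tested genes 8.16% had a larger difference than AZU1. The differences ran from +0.93 for CFD to -0.14 for LYZ, with 6 positive and 1 negative. Their median was +0.49, against -0.0053 over all tested genes, of which 49.3% were positive. In RNA from a whole culture, more cells with a transcript and more transcript per cell cannot be told apart.

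Neutrophil elastase (ELANE) had the only values in the set that did not overlap between the groups. They were 10.06, 9.81, 10.92 and 10.18 with APRIL, and 9.02, 9.76, 9.50 and 9.78 in control. The lowest APRIL library, column 2, stood just above the highest control library, column 4. Over all tested genes, 3.62% had their 4 APRIL values wholly above their 4 control values. The mean was 10.24 ± 0.48 in the APRIL libraries (SD, n = 4) and 9.51 ± 0.35 in the control libraries, a difference of +0.73 ± 0.25 or 1.66-fold. The adjusted p by limma was 0.3999 (unadjusted 0.0145), and an exact two-sided permutation test gave 0.0286, the smallest p that 4 against 4 libraries allow. In the authors' deposited table ELANE has a p-value of 0.04998.

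Proteinase 3 (PRTN3), the autoantigen of granulomatosis with polyangiitis, was at 5.58, 5.41, 6.39 and 5.92 with APRIL and at 4.75, 5.56, 5.21 and 5.45 in control. Of the APRIL libraries, 3 stood above every control library, and APRIL column 2 lay below control columns 2 and 4. The difference was +0.58 ± 0.24 (limma, adjusted p = 0.3999). Whole reads could be recovered for this gene, at 205, 345, 106 and 288 reads with APRIL and 83, 97, 104 and 195 in control. At the lowest of these, 83 reads, counting error alone is 0.16 on the log2 scale (standard error), smaller than the gap of 1.64 between the highest and lowest libraries.

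Azurocidin (AZU1) was at 8.66, 8.48, 9.50 and 8.87 with APRIL and at 8.15, 8.57, 8.35 and 8.49 in control. APRIL column 2 again fell among the control libraries, and the other 3 APRIL libraries stood above them. The difference was +0.49 ± 0.21 (limma, adjusted p = 0.3999), and without APRIL column 3 it was +0.28. AZU1 had 668 to 2459 recovered reads per library, so its counting error was the smallest among the 4 members with recovered reads.

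Complement factor D (CFD) had the largest difference of the set. It stood at 7.30, 6.97, 8.35 and 7.63 with APRIL and at 5.95, 6.99, 6.57 and 7.02 in control. APRIL column 2 lay below control columns 2 and 4, so the groups overlapped by a narrow margin. The difference was +0.93 ± 0.32 or 1.90-fold (limma, adjusted p = 0.3999, 95% interval 0.22 to 1.63). Its recovered reads were 573, 857, 352 and 802 with APRIL and 163, 223, 226 and 493 in control.

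**Figure D1:**
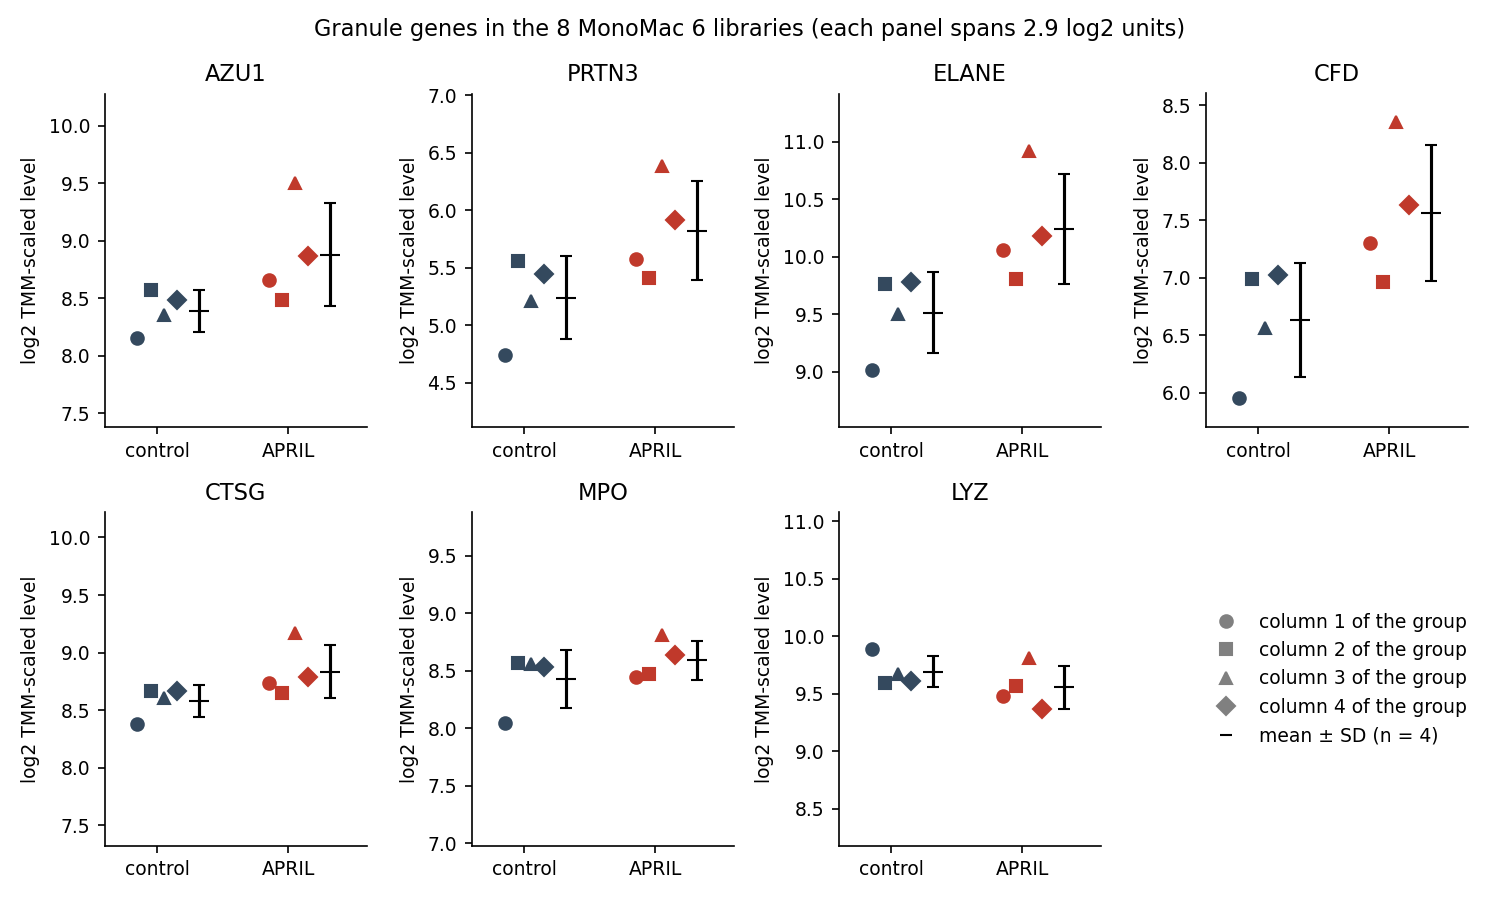
Log2 TMM-scaled level (vertical axis, each panel 2.9 log2 units high) of the 7 granule genes in 4 control libraries (blue) and 4 APRIL libraries (red), with marker shapes for the column number within a group and the mean ± SD (n = 4) in black. APRIL column 3 is the highest library for every gene but LYZ, control column 1 is the lowest for the same 6 genes, and only in ELANE do the groups not overlap.

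Cathepsin G (CTSG), the chymotrypsin-like member of the family, was at 8.73, 8.65, 9.17 and 8.79 with APRIL and at 8.38, 8.67, 8.60 and 8.67 in control. The 3 upper control libraries and the 3 lower APRIL libraries lay within a narrow band, and 1 library of each group stood away from it. The difference was +0.26 ± 0.14 (limma, adjusted p = 0.407), and it was +0.14 without APRIL column 3.

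Myeloperoxidase (MPO) was at 8.44, 8.47, 8.81 and 8.64 with APRIL and at 8.05, 8.57, 8.56 and 8.53 in control. Apart from control column 1, the control libraries were within the range of the APRIL libraries. The difference was +0.16 ± 0.15 (limma, adjusted p = 0.568, 95% interval -0.18 to 0.50), +0.034 without control column 1, +0.088 without APRIL column 3 and -0.039 without both. MPO had the fewest recovered reads of the 4 such members, 61 in APRIL column 3.

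Lysozyme (LYZ), which monocytes and macrophages make in large amounts, was at 9.48, 9.56, 9.81 and 9.37 with APRIL and at 9.89, 9.60, 9.67 and 9.61 in control. Here 3 of 4 APRIL libraries stood below every control library, and APRIL column 3 lay above 3 of the 4 control libraries. The difference was -0.14 ± 0.13 (limma, adjusted p = 0.566, 95% interval -0.42 to 0.15). It was -0.22 without APRIL column 3, -0.075 without APRIL column 4 and -0.071 without control column 1.

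The exact permutation p of the 6 members other than ELANE ran from 0.0857 to 0.429. In the authors' deposited table the fold of APRIL over control is 1.66 for ELANE, 1.498 for PRTN3, 1.40 for AZU1, 1.90 for CFD, 1.12 for MPO, 1.19 for CTSG and 0.909 for LYZ. The authors' deposited p-values for the members other than ELANE run from 0.0537 for CFD to 0.333 for MPO.

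The 4 chromosome 19 genes moved together from library to library, and CTSG on chromosome 14 moved with them. Their mean deviation from each gene's own mean was +0.11, -0.12, +1.00 and +0.36 with APRIL and -0.82, -0.065, -0.38 and -0.10 in control. APRIL column 3 and control column 1 are the ends of this order, and APRIL column 2 stood below control columns 2 and 4. Across the 8 libraries, where genes share each library's depth, scaling and trend with base composition, the 6 pairs among these genes had a Pearson r of 0.96 to 0.99. CTSG had an r of 0.97 to 0.99 with the 4, as high as among themselves, MPO one of 0.79 to 0.89, and LYZ had an r of -0.34 to -0.067 with the other 6 members.

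The number of members at an unadjusted p under 0.05 depended on single libraries. It was 2 (ELANE and CFD) without APRIL column 3, without APRIL column 4 or without control column 3, and 1 (ELANE) without control column 1. Over all genes that share was 9.28%, 5.94%, 7.22% and 4.5% in these fits. Without APRIL column 3 and control column 1 together it was again ELANE and CFD, at +0.34 and +0.44, with PRTN3 at +0.23, AZU1 at +0.20 and CTSG at +0.077, where 7.52% of all genes were under that p. With library quality weights the members at an unadjusted p under 0.05 were ELANE, AZU1, CFD and LYZ (17% of all genes), 0 members passed adjustment, and 0.0355% of all genes did. APRIL column 3 had the lowest weight (0.117), then control column 1 (0.316), and APRIL column 1 the highest (5.46), and so weighted ELANE was at +0.41, CFD at +0.50, PRTN3 at +0.26, AZU1 at +0.23, CTSG at +0.10, MPO at -0.042 and LYZ at -0.16.

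Ratios within a library were set out as values, without a test, since the pairs were chosen after the values were seen. ELANE minus LYZ was 0.58, 0.25, 1.11 and 0.81 with APRIL and -0.87, 0.16, -0.17 and 0.17 in control. Every APRIL library thus had more elastase relative to lysozyme than every control library. ELANE minus MPO was 1.34 to 2.11 with APRIL and 0.94 to 1.24 in control, again without overlap. The share of all gene pairs that separate in this way was not counted, and ELANE is richer in GC than LYZ and MPO. With the length and GC trends described below removed, ELANE minus MPO overlapped between the groups and ELANE minus LYZ did not. ELANE minus PRTN3, its chromosomal neighbour, came to 4.42 ± 0.12 with APRIL (SD, n = 4) and to 4.27 ± 0.053 in control (SD, n = 4). It ran from 4.26 to 4.53 with APRIL and from 4.20 to 4.33 in control. Only APRIL column 4 lay among the control libraries, and the other APRIL libraries stood above them.

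The libraries differed in trends with the base composition and length of transcripts, and the granule genes lie along that trend. The GC content of the longest GENCODE 29 transcript was 66.8% for ELANE, 66.4% for PRTN3, 65.4% for CFD and 63.4% for AZU1, where the median tested gene had 47.9%. It was 58.5% for MPO, 54.7% for CTSG and 41.5% for LYZ. The members with the 4 largest differences were thus the 4 richest in GC, and LYZ, with the lowest GC content of the set, had the only negative difference. ELANE, PRTN3, CFD and AZU1 had at least as much GC as 98.6%, 98.2%, 97.3% and 94.3% of the 10795 tested genes with a length and GC content. Their transcripts, of 1028 to 1713 bases, are short beside the median of 3632 bases. Over these 10795 genes, which are not independent replicates, the difference with APRIL had a Spearman's rho of 0.51 with GC content and -0.54 with length. By library, the deviation of a gene from its mean correlated with GC content at a rho of -0.74 in control column 1, 0.20 in APRIL column 3 and 0.65 in APRIL column 4. For length the lowest rho was -0.56, in APRIL column 3, and the highest 0.42, in control column 1.

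**Figure D2:**
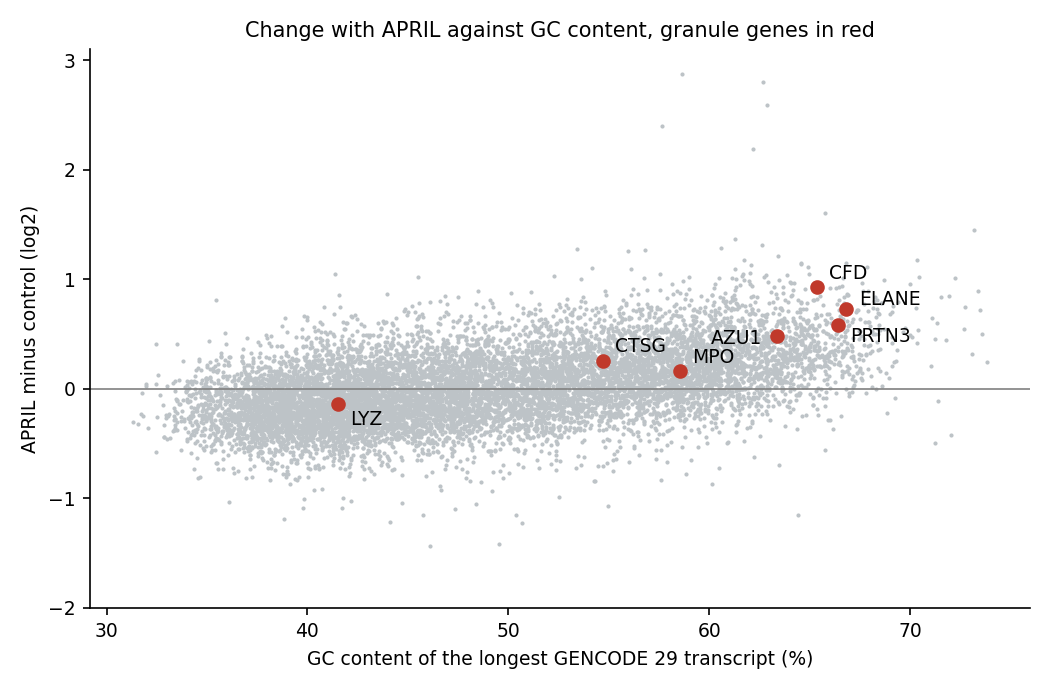
Difference between APRIL and control (log2, vertical axis) against the GC content (%) of the longest GENCODE 29 transcript for tested genes (grey), with the 7 granule genes in red. The cloud slopes upward (Spearman's rho = 0.51), and AZU1, PRTN3, ELANE and CFD sit at its GC-rich end while LYZ sits at 41.5% GC.

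With each library's trend with length and GC content removed, the differences of most members came close to 0. ELANE was then at +0.031 ± 0.084, AZU1 at +0.025 ± 0.086, PRTN3 at -0.10 ± 0.12, MPO at +0.0086 ± 0.096 and CTSG at -0.082 ± 0.080. The differences were positive in 4 of 7 members and in 48.6% of all genes so treated. CFD stayed positive at +0.31 ± 0.12 and LYZ was at -0.22 ± 0.075. By limma these 2 had an unadjusted p of 0.0252 and 0.0171 (adjusted p = 0.577 for both), where 8.24% of the 10795 genes were under an unadjusted p of 0.05 and 0% passed the adjusted threshold. For LYZ the values with trends removed did not overlap, at 9.39 to 9.65 with APRIL and 9.65 to 9.83 in control, the highest APRIL value (9.647) being just under the lowest control value (9.653). Of the 10795 genes 3.42% had their 4 APRIL values wholly below their 4 control values once the trends were removed. For CFD they were 7.14 to 7.31 with APRIL and 6.66 to 7.14 in control, with 3 APRIL libraries above every control library. APRIL column 3, the highest library for 6 members as deposited, was then the lowest for ELANE, PRTN3, CTSG and LYZ. It stayed the highest for AZU1 and MPO, and for CFD only APRIL column 4 stood above it. The chromosome 19 genes were then no longer alike as a set, with a Pearson r of -0.58 to 0.72 over their 6 pairs. ELANE with PRTN3 (0.72) and ELANE with CFD (0.21) were positive, and the other pairs were negative. CTSG had an r of 0.95 with PRTN3, 0.75 with ELANE, -0.32 with CFD and -0.58 with AZU1. The part of length and GC content in the differences was not tested.

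**Figure D3:**
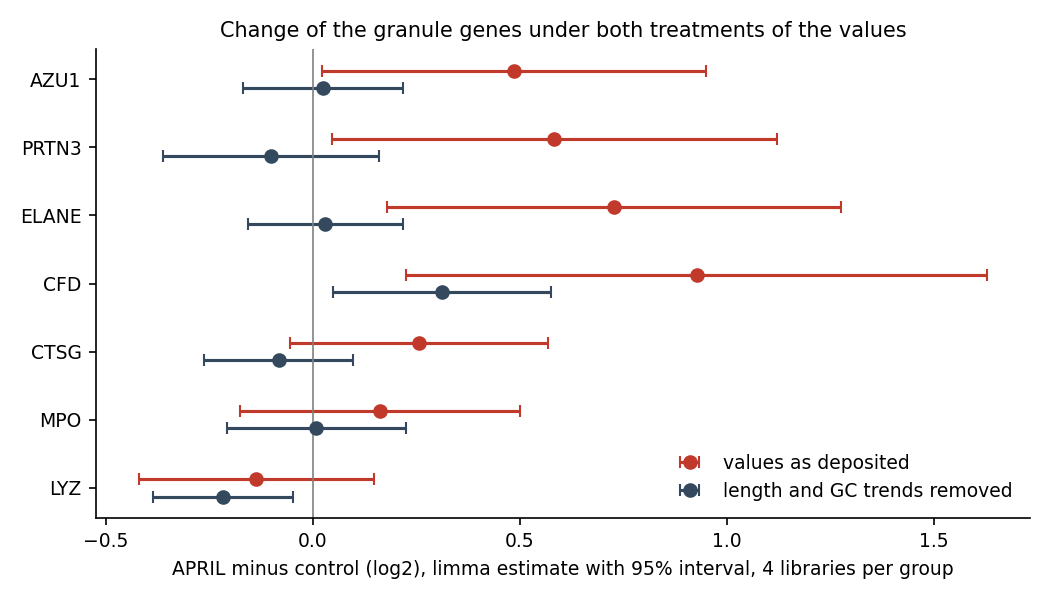
Difference between APRIL and control (log2, horizontal axis) with its 95% interval from limma (4 libraries per group) for each granule gene, from the values as deposited (red) and after removal of each library's length and GC trends (blue). After removal the intervals of 5 genes include 0, with CFD above it and LYZ below it, and neither of these passed adjustment over all genes.

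The genes around the chromosome 19 granule cluster were also mostly higher with APRIL. Of 27 tested neighbours on either side, 23 had a positive difference and 4 a negative one, with a median of +0.31. By limma 0 passed and 7 (25.9%) had an unadjusted p under 0.05, each higher, against 6.25% of all tested genes in that direction. Without control column 1 that was 1 higher and 1 lower, with a median of +0.12, where 4.5% of all genes were under that p. Their median GC content was 64.4%, close to that of the granule genes. WDR18, RNF126 and GPX4 had the smallest p, at +0.68 ± 0.23, +0.42 ± 0.15 and +0.58 ± 0.20, and GPX4 encodes the peroxidase that protects membrane lipids. In 9 neighbours the difference was larger than that of AZU1, up to +1.04 in ATP5D (+0.65 without APRIL column 3), a subunit of ATP synthase. The direct neighbours of the cluster in the table, LPPR3 and MED16, were at +0.60 ± 0.27 and +0.36 ± 0.22. With the trends removed the neighbours' median was +0.030.

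**Figure D4:**
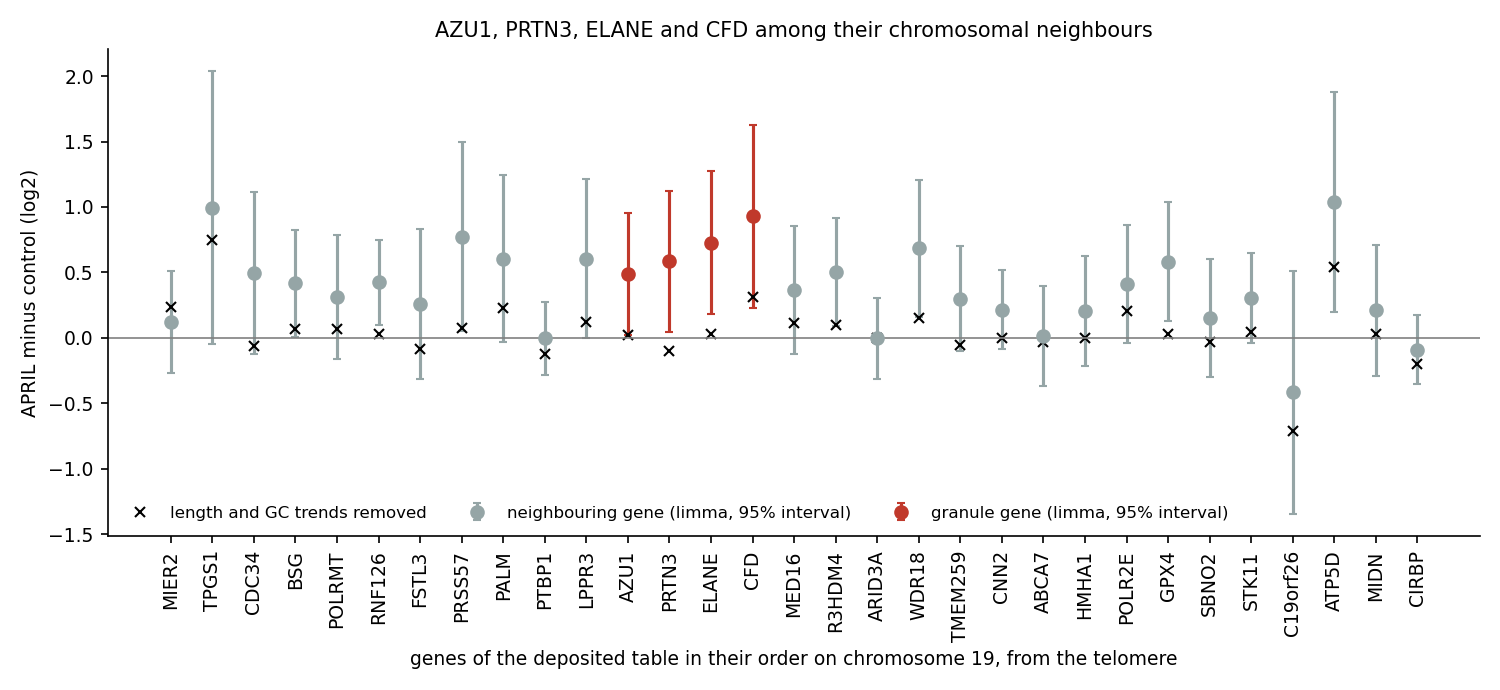
Difference between APRIL and control (log2, vertical axis, limma 95% interval) for 31 genes of the deposited table in their order on chromosome 19, with the granule genes in red, neighbours in grey and values after removal of the length and GC trends as crosses. The 4 granule genes lie within the range of their neighbours, -0.42 to 1.04, and the crosses lie nearer to 0 for most genes.

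Other granule proteins were tested for 7 of the 31 genes of that list, 7 with a positive difference (median +0.37, and +0.13 without APRIL column 3), 0 passing by limma and 2 at an unadjusted p under 0.05. Beside this count and those of the lists below, 11.9% of all tested genes were under that p, 6.25% higher and 5.69% lower. That share of all genes ran from 4.5% to 20% when each library was left out. PRSS57, neutrophil serine protease 4 and a chromosome 19 neighbour, was at 5.20, 4.69, 6.41 and 5.58 with APRIL and 4.27, 4.83, 4.68 and 5.01 in control, a difference of +0.77 ± 0.32. Leaving out APRIL column 3 gave +0.46, and removing the trends gave +0.072. Cathepsin W (CTSW) had values that did not overlap, 3.36 to 4.30 with APRIL and 2.67 to 3.22 in control, a difference of +0.76 ± 0.23 that was +0.32 with the trends removed. The eosinophil ribonucleases RNASE2 and RNASE3 gave +0.093 ± 0.13 and +0.14 ± 0.18, CHI3L1 gave +0.079 ± 0.13, and haptoglobin (HP) and PLAC8 gave +0.37 ± 0.17 and +0.37 ± 0.22. Among the genes of later granules, LTF, LCN2, CAMP, MMP8 and MMP9 are not listed in the table.

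Genes that activate, store and sort the proteases did not share a direction, with 13 positive and 13 negative among 26 tested (median +0.025, 0 passing by limma, 2 at an unadjusted p under 0.05). G6PC3 and JAGN1, whose loss causes severe congenital neutropenia, were at +0.57 ± 0.19 and +0.47 ± 0.22, and AP3B1, an adaptor subunit that sorts elastase, was at -0.37 ± 0.16. Among 8 tested inhibitors of granule and lysosomal proteases 7 were positive (median +0.24, 0 passing, 2 at an unadjusted p under 0.05), with the cystatins CST3 at +0.53 ± 0.21, CSTB at +0.36 ± 0.14 and CST7 at +0.37 ± 0.18. Without APRIL column 3 the inhibitors had 4 positive differences, a median of +0.014 and 1 at an unadjusted p under 0.05. Of the complement genes around factor D, 2 were positive and 7 negative (median -0.20, 0 passing, 1 at an unadjusted p under 0.05). CD59 and CD46, which shield host cells, were at +0.50 ± 0.32 and -0.20 ± 0.15. The complement median was -0.069 without APRIL column 3 (3 positive, with 1 higher and 0 lower at an unadjusted p under 0.05). It was -0.13 without APRIL column 4 and -0.097 without control column 1.

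The 8 heme synthesis genes, which supply the cofactor of MPO, had 7 positive differences (median +0.089, 0 passing, 1 at an unadjusted p under 0.05). Without APRIL column 3 the heme median was +0.038, with 5 positive and 0 at an unadjusted p under 0.05, and without control column 3 it was +0.15. UROD was at +0.61 ± 0.27 and UROS at +0.34 ± 0.26, the last at +0.030 without APRIL column 3. Transcription factors of the granulocyte and monocyte lineages were divided as deposited, 9 positive and 8 negative among 17 tested (median +0.0034, 0 passing). At an unadjusted p under 0.05 there were 4 of them, 1 higher and 3 lower. With the trends removed 2 of the 17 were positive, where 48.6% of all genes were. CEBPD was at +0.49 ± 0.21, MEIS1 at -0.31 ± 0.11 and ETV6 at -0.39 ± 0.17, and CEBPD was at +0.00049 with the trends removed. The median of these factors ran from -0.021 to +0.080 when each library was left out. Lysosomal proteases and hydrolases had 17 positive and 7 negative differences among 24 tested (median +0.13, 0 passing, 2 at an unadjusted p under 0.05), with CTSD at +0.40 ± 0.17 and PSAP at +0.24 ± 0.11. Without control column 1 the lysosomal median was +0.062, 0 were at an unadjusted p under 0.05, and CTSD was at +0.26. Without APRIL column 3 CST3 and UROD were at +0.33 each, PLAC8 at +0.13, JAGN1 at +0.25, CD59 at +0.26, RNASE2 at +0.0041, RNASE3 at +0.017, ETV6 at -0.25, CST7 at +0.24 and NKG7, a marker below, at +0.16. Without control column 1 CD46 was at -0.097 and CD14 at +0.35. With the trends removed the list medians were +0.072 for other granule proteins, -0.013 for activation, storage and sorting, +0.19 for inhibitors, -0.045 for complement, +0.046 for heme synthesis, -0.10 for transcription factors and -0.014 for lysosomal enzymes, against -0.0082 over all genes. Positive differences were then found in 4 of 7 other granule proteins, 12 of 26 sorting genes and 6 of 8 inhibitors. They were found in 4 of 9 complement genes, 5 of 8 heme synthesis genes and 9 of 24 lysosomal genes.

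The genes whose profile over the 8 libraries was most like the mean profile of the 7 members were HES6 (Pearson r = 0.996), PLIN3 (0.995), TK1 (0.995), ATP5D (0.994) and C1orf86 (0.993). None of these 5 is a granule gene. An r above 0.9 with the member profile was found for 1096 of 11250 other tested genes (9.74%), so this likeness is common in these libraries. HES6 differed by +0.73 ± 0.29, TK1 by +0.66 ± 0.26 and PLIN3 by +0.35 ± 0.16, and HES6 and TK1 have GC contents of 68.4% and 62.8%. Without APRIL column 3 HES6 was at +0.44 and TK1 at +0.42.

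The label of a monocytic line was checked against marker genes. Of 12 monocyte markers 10 were tested, among them CD14, CD33, CSF1R, ITGAM, FCGR1A, S100A8, S100A9, VCAN and TLR4, with a summed level of 717 to 1274 RPM (recovered reads scaled to a library sum of 1e+06) with APRIL and 795 to 963 RPM in control over the 8 with recovered reads. Of the 10 tested, 7 had a positive and 3 a negative difference (median +0.062, 0 passing, 2 lower at an unadjusted p under 0.05). Without control column 1 that was 5 positive (median -0.0032, 0 at an unadjusted p under 0.05), and without APRIL column 1 also 5 (median +0.0010). By limma TLR4 was at -0.43 ± 0.17 and VCAN at -0.50 ± 0.20 (adjusted p = 0.3999 for both), and CD14 at +0.60 ± 0.30, with VCAN at -0.32 without APRIL column 3. Of 10 markers of maturing neutrophils only CSF3R and CXCR2 are listed, with a summed 54 to 89 RPM with APRIL and 60 to 80 in control, and CEACAM8, FCGR3B, LTF and CAMP are not listed. The mast cell tryptases TPSAB1 and TPSB2, near-identical genes that can share reads, were at +0.49 ± 0.24 and +0.69 ± 0.26 (TPSB2 at +0.45 without APRIL column 3), with a summed 101 to 177 RPM with APRIL and 71 to 118 in control, and EPX, PRG2, CLC and CPA3 are not listed. NKG7 was at +0.46 ± 0.25 and is the only T and NK cell marker listed, B and plasma cell markers had 5 tested members (75 to 91 RPM with APRIL and 75 to 93 RPM in control), and erythroid markers 1 (EPOR). No fibroblast, epithelial or endothelial marker of the list was tested. With the length and GC trends removed TPSAB1 was at -0.082, TPSB2 at +0.11 and NKG7 at -0.076. TLR4 was then at -0.10, VCAN at -0.17 and CD14 at +0.29, and the median of the monocyte markers was +0.066. The part of other cell types in the granule differences was not tested.

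Depth also differed between the libraries. The reads of the 11157 genes with recovered reads summed to 929633 in APRIL column 3, the shallowest library, and 5318315 in APRIL column 2, the deepest, with 1375580 to 2953626 in control. The TMM factor of APRIL column 3 was 0.875, and those of the other 7 libraries were 1.00 to 1.03. APRIL column 3 is at once the library with the highest granule values, the lowest depth and the lowest quality weight, and the part of these in the granule differences was not tested. Without it ELANE and CFD were at +0.50 and +0.66.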

How the data were processed

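RNA of 8 MonoMac 6 libraries (4 APRIL, 4 control) was measured. The TruSeq RNA v2 chemistry (per the labels' protocols) does not mark strand, so reads of overlapping genes cannot be told apart. The submitters' processing notes name bcl2fastq, TopHat2 2.0.13 and build hg19. Counter, annotation and gene filter: not given in the sources used here. For 11530 genes the authors' table gives, per the file headers, TMM-scaled values of each library, taken as log2 from their range (-4.96 to 15.4), a p-value and a linear fold ratio. The log10 of that p-value and 2 signed score columns, also deposited, were not used.

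The differences were fitted with limma 3.58.1 in R 4.3.3, with intensity trend and robust empirical Bayes, group as the only term and Benjamini-Hochberg adjustment over 11257 genes whose unlogged value reached 1 in 4 libraries or more. Whole reads were recovered for 11157 genes (96.8%) as log2 of reads plus 0.5 over a whole-number divisor plus a library constant, at a chance expectation under 0.001; 4 members resolved and ELANE, CTSG and LYZ did not. Length and GC trends were removed per library by loess (span 0.3) on the longest GENCODE 29 transcript, matched by current or older symbol. The fit was tested on simulated data. Python 3.11.15 with numpy 2.4.6, pandas 2.3.3 and scipy 1.17.1 gave exact permutation tests over 70 relabelings.

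The members and gene lists were chosen with earlier results of these data known. All members are named, and in each other list the 3 genes with the smallest p; the other granule proteins, ATP5D, LPPR3 and MED16 were named in addition after their values were seen. Some genes that this rule names are not reported here. Profiles most like the members' mean profile name 5 genes. Alternatives were other filters, variance models, weights, scalings, voom and leaving out libraries.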

Additional observations from a re-analysis of the deposited data

Results flagged for a closer look

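In 104 groups of 4 libraries (52 named genes in 2 groups), 9 had 1 library far from the other 3, its gap to the nearest of them taking most of the group's range by Dixon's 95% criterion; chance gives about 1 in 20 groups. Among the granule genes the only case was MPO in control, where control column 1 stood at 8.05 below the other 3. Control column 1 was also the low library for HP (4.46) and TK1 (3.28) and the high one for CD46 (6.86). APRIL column 3 was the high library for UROS (8.80), PLAC8 (6.21) and PSAP (12.4). CD79A was high in APRIL column 4 (2.28), and MEIS1 was low in control column 3 (7.45).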

How the results depend on the processing

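No granule gene passed adjustment in limma under any of 17 alternatives (voom covered 4 of them), and over all genes the count was 4 with library quality weights (3 higher, 1 lower) and 0 in the other 16. Of 116 member values under alternatives, 112 kept their direction and 4 reversed: MPO was at -0.042 with quality weights and -0.039 without APRIL column 3 and control column 1, and PRTN3 and CTSG were at -0.10 and -0.082 with length and GC trends removed. The median member difference was +0.23 with quality weights, +0.0086 with the trends removed, +0.20 without those 2 libraries, and 0.28 to 0.62 when each library was left out. The number of members at an unadjusted p under 0.05 was 2 with the trends removed, 2 without those 2 libraries, and 1 to 4 when each library was left out. Other filters and a plain variance model cannot move a member's difference, so their share of the 112 was fixed in advance. Quantile normalisation and median centring kept each member's direction. The causes were not tested. No paired analysis was possible because the columns carry no replicate numbers. Of the 4 members with recovered reads, MPO had the fewest, 61 in its shallowest library.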
